A study of Arabidopsis thaliana with 9 samples.

Results

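The nuclear genes of the chloroplast NAD(P)H dehydrogenase-like (NDH) complex are described here through 5 members, NdhN, CRR23, NdhS, PPL2 and PNSL2, among 22746 probe sets on the Affymetrix ATH1 array. The 5 were chosen because CAB3::pBVR2 seedlings had less of their RNA than 35S::pBVR3 seedlings on these same arrays and because all belong to 1 complex. All 5 stand on the study's own list, which rests on an analysis of variance across the 3 lines and on the fold change between the pBVR lines. Their levels in the 3 lines are therefore given as a description, without a test.

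The study asked which genes differ with the tissue in which phytochromes are lost under continuous far-red (FRc) light. In CAB3::pBVR2, a promoter active in mesophyll drives a biliverdin reductase (BVR), an enzyme that removes the chromophore of phytochromes, the red and far-red photoreceptors. In 35S::pBVR3, the same reductase is driven by the constitutive 35S promoter, whose activity the study describes as enriched in vascular tissue. The study proposes that patterns of BVR in cotyledons may account in part for the difference in hypocotyl length between these lines. This was not tested here. No-0 WT is the wild type of the No-0 accession. Whole seedlings of all lines were taken at 7 days, after a pulse of red light, cold stratification and growth in FRc light, with 3 arrays per line from separate RNA extractions, so that p-values measure the spread between extractions, which may be technical. Each promoter is represented by 1 transgenic line, so that the promoter and the insertion event cannot be told apart, and BVR itself was not analysed here.

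The NDH complex lies in the thylakoid membrane, accepts electrons from ferredoxin and passes them to plastoquinone, while protons are moved into the lumen. It serves cyclic electron flow around photosystem I and chlororespiration, and mutants that lack it were found by a missing rise of chlorophyll fluorescence after illumination. Its membrane arm (subcomplex M) is encoded in the plastid. The stromal subcomplex A joins plastid-encoded and nuclear subunits, and subcomplexes B, E and L are built from nuclear genes. Subcomplex E holds the site for ferredoxin, and subcomplex L faces the lumen.

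Signals are MAS5 intensities scaled to a common 75th percentile, given as mean ± SD of 3 arrays. They ran from 104 to 3031 for the 5 genes over the 9 arrays and lay above background (25.4 to 49.6 before scaling, the brightest bacterial control probe set of each array) on every array. Arrays of a line correlated at 0.948 to 0.968 across kept probe sets, and arrays of different lines at 0.847 to 0.946, where the points are genes and not replicates. Of 18 marker genes for seedling tissues, only 2 had a named probe set. The mesophyll marker RCA, which encodes Rubisco activase, had signals of 7590 ± 821 in CAB3::pBVR2, 15250 ± 4072 in 35S::pBVR3 and 21670 ± 1177 in the No-0 WT line. It fell 1.97-fold in CAB3::pBVR2 against 35S::pBVR3 (limma adjusted p = 0.0156), and 2.86-fold against No-0 WT (adjusted p = 0.000402). The stomatal regulator gene FAMA had signals of 85.6 ± 47.8 in CAB3::pBVR2, 125 ± 13.8 in 35S::pBVR3 and 278 ± 80.9 in the No-0 WT line, and of the 3 pairs of lines it passed limma only in CAB3::pBVR2 against No-0 WT (adjusted p = 0.00386). Fewer mesophyll cells and less RNA per cell cannot be told apart in whole seedlings, and the part of these markers in the values below was not tested.

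All 5 genes had their lowest mean signal in CAB3::pBVR2, the next in 35S::pBVR3 and the highest in No-0 WT. Against 35S::pBVR3, all 5 were at least 2-fold lower in CAB3::pBVR2, with no overlap of arrays. Their log2 differences ran from −2.83 to −1.26, with a median of −2.31, beside a median of 0.03 over 15436 kept probe sets. Of these, 4.53% were at least 2-fold lower in this comparison, and 15.9% were lower with no overlap of arrays. These values chose the genes and are a description only. The plot of signals by line shows each array.

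**Figure D1:**
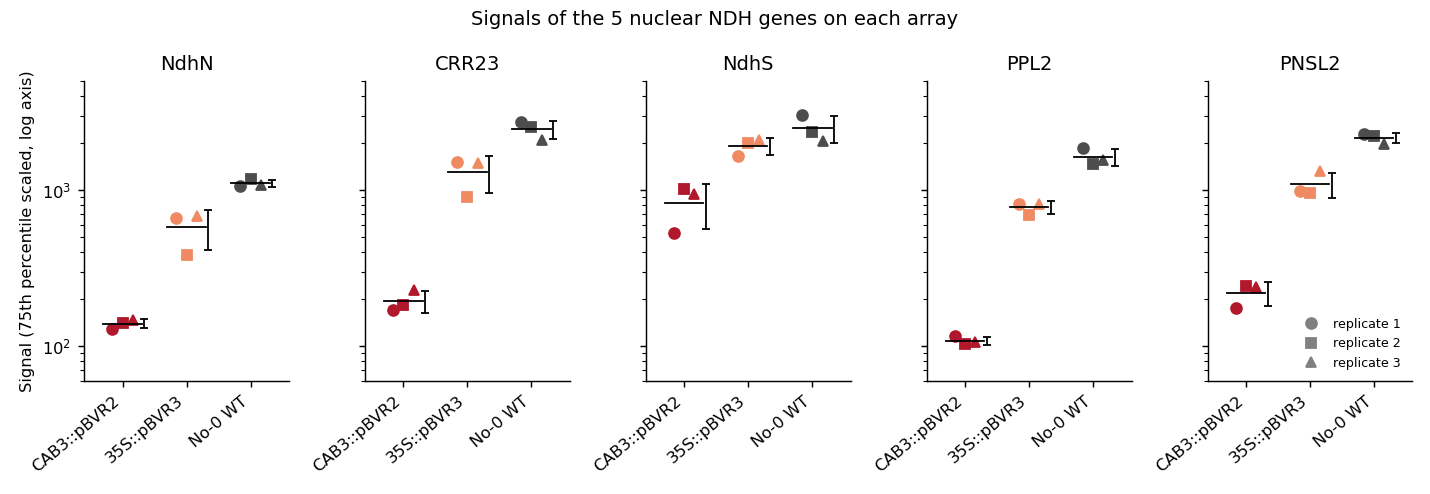
Signals of the 5 genes (log axis) on each array, by line. Symbols mark the replicate, horizontal lines the mean and side bars the SD of 3 arrays. The CAB3::pBVR2 arrays lie below those of both other lines for all 5 genes, and the 35S::pBVR3 and No-0 WT arrays overlap only for NdhS.

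NdhN and CRR23 encode nuclear subunits of subcomplex A, the stromal part next to the membrane arm. CRR23 is also known as NdhL and is the subunit of subcomplex A that is anchored in the membrane. NdhN (*AT5G58260*) had signals of 129, 141 and 148 on the CAB3::pBVR2 arrays, 663, 386 and 682 on the 35S::pBVR3 arrays and 1065, 1177 and 1083 on the No-0 WT arrays. The lines did not overlap, and 35S::pBVR3 replicate 2 stood well below the other arrays of its line. The mean of 139 ± 9.38 in CAB3::pBVR2 was 12.6% of the No-0 WT mean (1108 ± 60.1), and the mean of 577 ± 166 in 35S::pBVR3 was 52.0% of it. On the log2 scale NdhN differed by −2.01 ± 0.22 (SE) in CAB3::pBVR2 against 35S::pBVR3 and by −0.99 ± 0.22 in 35S::pBVR3 against No-0 WT.

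CRR23 (*AT1G70760*) had signals of 171, 184 and 229 in CAB3::pBVR2, 1512, 906 and 1502 in 35S::pBVR3 and 2731, 2522 and 2087 in the No-0 WT line. As with NdhN, replicate 2 was the lowest of the 35S::pBVR3 arrays, and the lines did not overlap. Its means of 194 ± 30.2 in CAB3::pBVR2 and 1307 ± 347 in 35S::pBVR3 were 7.94% and 53.4% of that in No-0 WT (2447 ± 329). The log2 difference was −2.72 ± 0.23 (SE, 6.6-fold) between the pBVR lines and −0.93 ± 0.23 (1.91-fold) between 35S::pBVR3 and No-0 WT. While NdhN and CRR23 were lowered alike in 35S::pBVR3, CRR23 had the lower share of its No-0 WT signal left in CAB3::pBVR2.

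NdhS (*AT4G23890*), also known as CRR31, encodes the subunit of subcomplex E that takes part in binding ferredoxin. It had the smallest differences of the 5 genes in every pair of lines. Signals were 528, 1019 and 949 in CAB3::pBVR2, 1652, 2012 and 2099 in 35S::pBVR3 and 3031, 2374 and 2079 in the No-0 WT line. Here the CAB3::pBVR2 arrays lay below all others, with replicate 1 lowest, but the highest 35S::pBVR3 array lay above the lowest No-0 WT array. NdhS averaged 832 ± 265 in CAB3::pBVR2, 33.4% of the No-0 WT mean (2495 ± 487), and 1921 ± 237 in 35S::pBVR3, 77.0% of it. The log2 difference was −1.26 ± 0.26 (SE) in CAB3::pBVR2 against 35S::pBVR3 and −0.37 ± 0.26 in 35S::pBVR3 against No-0 WT, so that the order of the 2 lines at the top of this scale is not separated from the spread of the arrays.

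PPL2 and PNSL2 belong to subcomplex L, on the lumen side of the thylakoid. Both encode relatives of the oxygen-evolving proteins of photosystem II, PPL2 of PsbP and PNSL2 of PsbQ, and PPL2 is also known as PNSL1. PPL2 (*AT2G39470*) had signals of 116, 104 and 106 in CAB3::pBVR2, 819, 692 and 815 in 35S::pBVR3 and 1873, 1466 and 1556 in the No-0 WT line. No arrays of different lines overlapped, and PPL2 had the largest differences of the 5 genes in every pair of lines. Its mean of 109 ± 6.11 in CAB3::pBVR2 was 6.65% of that in No-0 WT (1632 ± 214), and its mean of 775 ± 72.0 in 35S::pBVR3 was 47.5% of it. The log2 difference was −2.83 ± 0.15 (SE, 7.13-fold) between the pBVR lines and −1.07 ± 0.15 (2.10-fold) in 35S::pBVR3 against No-0 WT.

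PNSL2 (*AT1G14150*) had signals of 176, 242 and 241 in CAB3::pBVR2, 990, 961 and 1319 in 35S::pBVR3 and 2284, 2209 and 1985 in the No-0 WT line. These too did not overlap between lines. The CAB3::pBVR2 mean (219 ± 37.5) was 10.2% and the 35S::pBVR3 mean (1090 ± 199) 50.5% of the No-0 WT mean of 2160 ± 156. PNSL2 thus had about the same share of its No-0 WT signal in 35S::pBVR3 as NdhN, CRR23 and PPL2, with log2 differences of −0.999 ± 0.189 (SE) in 35S::pBVR3 against No-0 WT and −2.31 ± 0.19 in CAB3::pBVR2 against 35S::pBVR3.

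Against No-0 WT, the 5 genes were 3.08-fold (NdhS) to 15.0-fold (PPL2) lower in CAB3::pBVR2, with NdhN at 7.96-fold, PNSL2 at 9.93-fold and CRR23 at 12.6-fold. The median log2 difference was −3.31. All 5 were lower with no overlap of arrays, as were 25.8% of the kept probe sets, and at least 2-fold lower, as were 11.5%. In 35S::pBVR3 against No-0 WT the median was −0.99, and 4 of 5 genes were lower with no overlap, against 19.1% of the kept probe sets. The full order with no overlap in either step held for the same 4 genes and for 9.17% of the kept probe sets. In 35S::pBVR3 against No-0 WT only PPL2 was at least 2-fold lower, with 1.71% of the kept probe sets. PNSL2 (log2 difference −0.9994) and NdhN (−0.9871) lay just short of this cut. With a shift by the array median both passed it (−1.03 and −1.02). The 3 comparisons share arrays in pairs and are set side by side without a further reading.

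**Figure D2:**
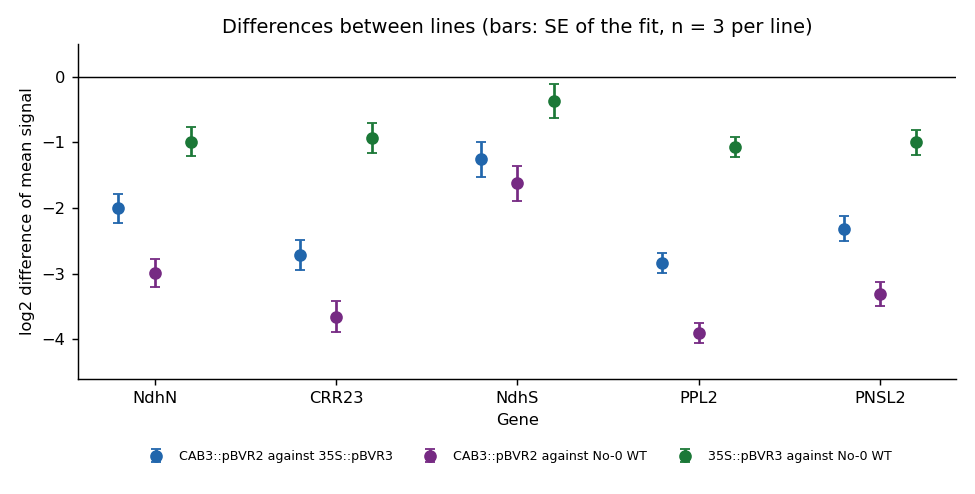
Log2 difference of mean signal (vertical axis) of each gene for the 3 pairs of lines, with bars for the SE of the fit to 9 arrays (n = 3 per line). In every gene the difference is largest for CAB3::pBVR2 against No-0 WT and smallest for 35S::pBVR3 against No-0 WT, and NdhS lies nearest to 0 in each pair.

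The larger step came between the pBVR lines. For each gene the log2 difference between CAB3::pBVR2 and 35S::pBVR3 was the further below 0 of the 2 steps. Relative to the step between 35S::pBVR3 and No-0 WT it stood at −0.89 for NdhS, −1.02 for NdhN, −1.31 for PNSL2, −1.76 for PPL2 and −1.79 for CRR23. Of the whole log2 difference between CAB3::pBVR2 and No-0 WT, 22.6% (NdhS) to 33.0% (NdhN) was already present in 35S::pBVR3. The choice of genes by the comparison of the pBVR lines favours a large step there. On arrays of the same replicate number, the step between the pBVR lines was the larger one for all 5 genes, except for NdhN in replicate 2 (−1.45 in CAB3::pBVR2 against 35S::pBVR3 and −1.61 in 35S::pBVR3 against No-0 WT). Replicate 3 of NdhS was the single case in which 35S::pBVR3 did not lie below No-0 WT (0.01).

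**Figure D3:**
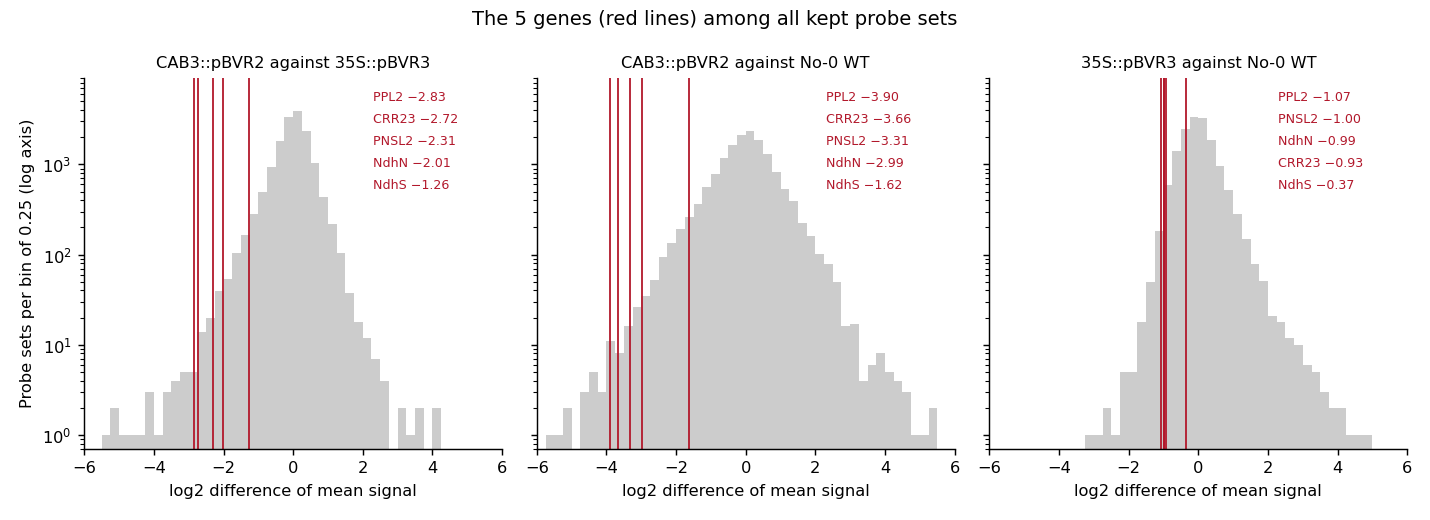
Number of kept probe sets (log axis) in bins of the log2 difference for each pair of lines, with red lines and printed values for the 5 genes. PPL2 and CRR23 lie in the far lower tail for CAB3::pBVR2 against both other lines, and 4 of the 5 genes lie close together near −1 for 35S::pBVR3 against No-0 WT.

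Single arrays moved several of the genes at once. Replicate 2 was the lowest 35S::pBVR3 array for 4 of 5 genes, by −0.53 (NdhN) and −0.49 (CRR23) from the mean of the line on the log2 scale and by −0.16 and −0.17 for PPL2 and PNSL2, whereas NdhS stood 0.07 above its mean there. In CAB3::pBVR2, replicate 1 was the lowest array for 4 of 5 genes, most of all for NdhS (−0.60), while PPL2 was highest on it (0.09). No-0 WT replicate 1 was the highest array of its line for 4 of 5 genes. Without 35S::pBVR3 replicate 2, NdhN differed by −2.27 in CAB3::pBVR2 against 35S::pBVR3 and by −0.72 in 35S::pBVR3 against No-0 WT. Without CAB3::pBVR2 replicate 1, NdhS differed by −0.96 in CAB3::pBVR2 against 35S::pBVR3. The direction stayed the same in each of these.

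Other nuclear genes of the complex could be tested where the platform annotation names their probe set. This held for 7 of 29 further nuclear genes of the complex, its assembly and the processing of its transcripts. The means of all 7 were lower in the CAB3::pBVR2 line. Between the pBVR lines, limma called 5 of 7 lower and 0 higher (7 and 0 with an unadjusted p under 0.05), and the median log2 difference was −1.24. Of all kept probe sets, 6.69% passed as lower and 1.74% as higher (14.0% and 8.93% unadjusted). NdhV, CRR42, CRR27 and CRR21 also stand on the study's list, which was chosen on these arrays, so that their direction is not independent evidence. Of the 3 genes that are not on it, CRR41 and CRR28 passed and CRR22 did not. CRR42, CRR22 and CRR28 reached the filter on low values on 0 of 3 CAB3::pBVR2 arrays and entered the test through the lines where they are higher, so that the counts over all 7 are in part set by the filter. Of the other 4 genes, NdhV, CRR41 and CRR27 passed. Only CRR41 stands outside both the study's list and this limit of the filter. The count of 5 of 7 beside the share of all kept probe sets is therefore a description. NdhV, a further subunit of subcomplex E, had signals of 192 ± 26.0 in CAB3::pBVR2 and 702 ± 98.3 in 35S::pBVR3 (3.65-fold, adjusted p = 0.000549). CRR27, a chaperonin subunit that folds NdhH, had signals of 102 ± 16.7 and 243 ± 50.9 in the same order (2.36-fold, adjusted p = 0.00538). CRR42 and CRR41, assembly factors of subcomplex A, fell 3.50-fold and 1.97-fold (adjusted p = 0.0111 and 0.0154).

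The other genes of the 7 act on plastid RNA. CRR21, CRR22 and CRR28 are pentatricopeptide repeat proteins for editing of ndh transcripts. CRR28 fell 1.84-fold in CAB3::pBVR2 against 35S::pBVR3 (adjusted p = 0.0367), while CRR22 (adjusted p = 0.0644) and CRR21 (2.05-fold lower, adjusted p = 0.107) did not pass. CRR22 is close to background, with signals of 9.38, 22.2 and 53.7 in CAB3::pBVR2, of which 1 of 3 arrays lay above it. CRR42, CRR21 and CRR28 each had 2 of 3 CAB3::pBVR2 arrays above background. The count of 5 lower genes became 3 without CAB3::pBVR2 replicate 1, without 35S::pBVR3 replicate 2 and without 35S::pBVR3 replicate 3.

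Against No-0 WT, the 4 genes that reached the filter on CAB3::pBVR2 arrays fell in that line, as did the 3 that did not, where 20.2% of all kept probe sets passed as lower and 16.7% as higher (24.2% and 22.2% unadjusted), with a median log2 difference of −2.14 and adjusted p from 1.43e-05 (NdhV) to 0.00376 (CRR22). CRR42 fell 8.09-fold and NdhV 7.20-fold, and CRR41 changed least (2.86-fold). In 35S::pBVR3 against No-0 WT, 2 of 7 fell, CRR28 (2.40-fold, adjusted p = 0.0137) and NdhV (1.97-fold, adjusted p = 0.0153), and 0 rose (6 and 0 at an unadjusted p under 0.05), where 5.29% of all kept probe sets passed as lower and 4.25% as higher (15.1% and 11.9% unadjusted). CRR28 and CRR22 reached the filter on 1 of 3 35S::pBVR3 arrays and on 3 of 3 No-0 WT arrays. They entered this comparison mainly through the line where they are higher. NdhV, CRR42, CRR27 and CRR21 stand on the study's list, which rests on an analysis of variance across all lines. Neither of the 2 calls is thus independent of the choice of genes, and the counts in both comparisons are a description. In the fit with a replicate block, 5 of 7 passed. All 7 were lower in 35S::pBVR3 with no overlap of arrays, beside 19.1% of the kept probe sets, and the median was −0.98. The count of 2 became 4 without CAB3::pBVR2 replicate 1 and 1 without No-0 WT replicate 2.

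A further 14 nuclear genes have their probe set named only by the study's list, and are described without a test because that list was chosen on these arrays. The other 8 nuclear genes had no probe set named by either source and are not shown. A gene without a platform name could enter only through that list. The CAB3::pBVR2 arrays lay below the 35S::pBVR3 arrays for all 14 and for 15.9% of the kept probe sets, with log2 differences of the 14 from −2.08 to −1.10. The study's list asked for a change of at least 2-fold between these lines. The size of these differences, their lack of overlap and the ranges by subcomplex that follow were therefore set in part by the choice. Together with the members, the genes of subcomplex L (PPL2, PNSL2, PNSL3 and PNSL4) ran from −2.83 to −1.72, those of subcomplex A (CRR23, NdhN and NdhO) from −2.72 to −1.69, those of subcomplex E (NdhV, NdhT and NdhS) from −1.87 to −1.26 and the 5 of subcomplex B (PNSB1 to PNSB5) from −1.54 to −1.15. PNSL3, a second PsbQ-like protein, had signals of 63.6 ± 4.39 in CAB3::pBVR2, 270 ± 38.6 in 35S::pBVR3 and 451 ± 103 in the No-0 WT line. PNSB1, of subcomplex B, had 545 ± 84.0, 1433 ± 136 and 2778 ± 191 in the same order of lines. LHCA6, an antenna protein that links the complex to photosystem I, stood at −1.10. In 35S::pBVR3 against No-0 WT these 14 genes lay between −1.14 and −0.49, and 11 of them did not overlap, beside 19.1% of the kept probe sets. The study's list also rests on an analysis of variance across all lines, so that this count is not independent of it.

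**Figure D4:**
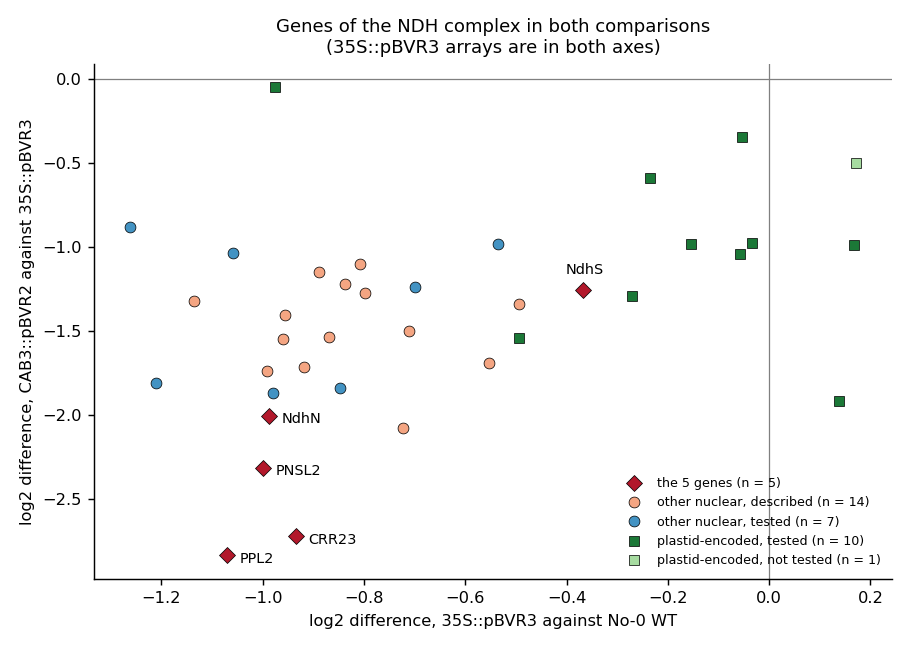
Log2 differences of genes of the NDH complex, its assembly and its RNA processing in 35S::pBVR3 against No-0 WT (horizontal axis) and in CAB3::pBVR2 against 35S::pBVR3 (vertical axis). Diamonds mark the 5 genes, circles the other nuclear genes and squares the plastid-encoded genes, and the 35S::pBVR3 arrays enter both axes. PPL2, CRR23 and PNSL2 lie lowest, the other nuclear genes shown lie to the left of 0, and most plastid-encoded genes lie near 0 on the horizontal axis. The 8 nuclear genes with no named probe set are not shown.

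The plastid-encoded subunits of the same complex were measured by 10 probe sets for single genes. Between CAB3::pBVR2 and 35S::pBVR3 the means of all 10 were lower in CAB3::pBVR2, with a median log2 difference of −0.98. In limma 0 of 10 passed in either direction (7 lower and 0 higher at an unadjusted p under 0.05, and 0 without moderation of variances), and 4 passed as lower in the fit with a replicate block. Among all kept probe sets, 6.69% passed as lower and 1.74% as higher (14.0% and 8.93% unadjusted). The ndhF gene, among the 7, reached the filter on 0 of 3 CAB3::pBVR2 arrays and on 1 of 3 35S::pBVR3 arrays. The ndhE gene, of the membrane arm, had signals of 269, 968 and 439 in CAB3::pBVR2, 1971, 2126 and 1456 in 35S::pBVR3 and 1069, 3327 and 1288 in the No-0 WT line. This wide spread within lines left it at an adjusted p of 0.0525 for a 3.77-fold difference between the pBVR lines.

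In CAB3::pBVR2 against No-0 WT, 6 of 10 plastid-encoded genes fell and 0 rose, among them ndhG (4.09-fold, adjusted p = 0.012) and ndhI (1.77-fold, adjusted p = 0.00754). Of all kept probe sets, 20.2% passed as lower and 16.7% as higher. The ndhF gene, among the 6, reached the filter on 0 of 3 CAB3::pBVR2 arrays. The count of 6 became 8 with the replicate block and without No-0 WT replicate 1, 2 without CAB3::pBVR2 replicate 1, and 3 without CAB3::pBVR2 replicate 3 or without No-0 WT replicate 2. In 35S::pBVR3 against No-0 WT, 5.29% of all kept probe sets passed as lower and 4.25% as higher (15.1% and 11.9% unadjusted). Of the 10 plastid-encoded genes, 0 passed there (0 also at an unadjusted p under 0.05 and with the replicate block). Their median was −0.11, beside −0.98 for the 7 tested nuclear genes, of which 4 stand on the study's list. Of these 7, CRR22 and CRR28 reached the filter on 1 of 3 35S::pBVR3 arrays and on 3 of 3 No-0 WT arrays. The difference between these 2 lists was not tested. The 25S rRNA control, an RNA without a poly(A) tail, had signals of 227 to 725 in CAB3::pBVR2, 560 to 6649 in 35S::pBVR3 and 1302 to 8413 in No-0 WT, and its part in the plastid values was not tested.

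Among 8395 other kept probe sets with a single named gene, those most like the mean profile of the 5 genes were sought by the root mean square difference of centred log2 signals over the 9 arrays. The nearest were *AT5G62840* (0.217), *AT3G19800* (0.229), *AT3G48420* (0.235), CaS (0.238) and *AT2G36145* (0.248), against a median of 1.357 over all of these probe sets. CaS, which encodes a calcium-sensing protein of the thylakoid, had signals of 304 ± 29.6 in CAB3::pBVR2, 1311 ± 89.1 in 35S::pBVR3 and 3109 ± 431 in the No-0 WT line. *AT2G36145*, named LHE1 in the study, had 195 ± 18.3, 968 ± 108 and 2222 ± 623 in the same order. Of the 5 genes themselves, PNSL2 (0.121) and NdhN (0.174) lay closest to their mean, then CRR23 (0.280), PPL2 (0.374) and NdhS (0.651), which all lay farther from it than each of the 5 named neighbours. The neighbours were picked as the smallest distances among 8395, and each of the 5 genes is itself part of the mean. The distances of the 2 groups are therefore not comparable. This is a description of likeness over 9 arrays of 3 lines.

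**Figure D5:**
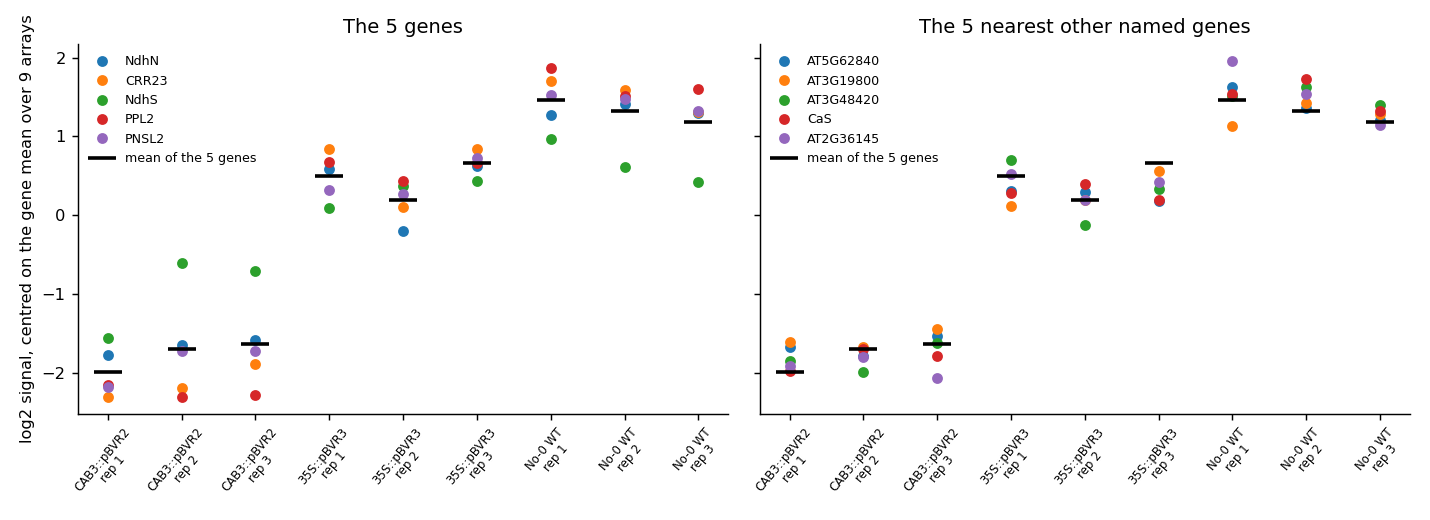
Log2 signal of each gene, centred on its mean over 9 arrays (vertical axis), on each array of the 3 lines, for the 5 genes (left) and the 5 other named genes with the nearest profile (right). Black dashes mark the mean of the 5 genes. NdhS stands above the other 4 in CAB3::pBVR2 and below them in No-0 WT.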

How the data were processed

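The authors deposited linear signal intensities made with MAS5 (version and settings not given in the sources used here) for 9 ATH1 arrays. The values themselves show each array scaled to a mean near 499 after trimming of 2% at both ends. Detection calls were not used, and coordinates are not given because no build is named for the deposited values. The RefSeq table (TAIR10.1) served only for gene names and neighbours. Of 22810 probe sets, 64 controls were left out, and 3 zeros were set to 0.1. Log2 values were shifted by the 75th percentile of each array, as in the methods. Probe sets that reached the 40th percentile of an array on 1 or more of the 9 arrays entered the tests (15436 kept), in place of the flags used in the methods. All arrays entered 1 fit in limma 3.58.1 (R 4.3.3, lmFit and eBayes), with Benjamini-Hochberg adjustment over all kept probe sets and a threshold of 0.05. Fold changes are differences of mean log2 signal. The number of arrays limits the precision: 3 against 3 arrays cannot give an exact permutation p under 0.1. The fit was tested on simulated data with independent noise on each array, without the movement shared by arrays of the same replicate number.

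Of the members, 3 are named by the platform table and 2 only by the study's list. The members and gene lists were chosen with earlier results of these data known. The rule for named genes took all members, any measured gene of the NDH lists and the 5 nearest profiles by rank. The study's own fold changes were not used as values. Its list named probe sets that the platform table does not name, and so decided which of those genes could be shown. Arrays with the same replicate number in the labels moved together around the line means (9 pairs, r from 0.207 to 0.391, against −0.263 to −0.0507 for 18 pairs with different numbers). Values were centred on the line means first, so that positive values for same-number pairs bring negative values for the others, which are not separate evidence. The pairing by replicate number comes from the data and is not stated in the labels, so that the replicate block was used as an alternative. Other alternatives were the scaling, an offset of 16, the filter, the moderation of variances, a fit of the compared lines alone and each array left out.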

Additional observations from a re-analysis of the deposited data

How the results depend on the processing

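All 5 genes stayed lower in each pair of lines under every scaling, the offset, the replicate block and each array left out (210 values, 0 with a turned sign), and 2 values moved by more than 1 residual SD of the gene within lines (0.141 for PPL2 to 0.356 for NdhS), both of PPL2 with an offset of 16 (−2.67 in CAB3::pBVR2 against 35S::pBVR3 and −3.73 against No-0 WT). The widest moves in log2 units were 0.30 for NdhS without CAB3::pBVR2 replicate 1 and 0.27 for NdhN without 35S::pBVR3 replicate 2. The median over the 5 ranged from −2.40 to −2.16 in CAB3::pBVR2 against 35S::pBVR3, from −3.40 to −3.16 in CAB3::pBVR2 against No-0 WT and from −1.11 to −0.72 in 35S::pBVR3 against No-0 WT. As deposited, the median of all kept probe sets was 0.115 and 0.171 for CAB3::pBVR2 against 35S::pBVR3 and No-0 WT.

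Counts of called genes moved more, and the cause was not tested. For the 7 other nuclear genes in CAB3::pBVR2 against 35S::pBVR3, 3 passed as lower without a filter, 3 with the stricter filter, which left 4 to test, and 3 to 6 with single arrays left out. Against No-0 WT, 4 of the 4 left by the stricter filter passed. In 35S::pBVR3 against No-0 WT, 4 passed with quantile normalization, with the offset and with the compared lines alone, 5 with the replicate block, 1 without a filter and 1 to 4 with single arrays left out. For the 10 plastid-encoded genes in CAB3::pBVR2 against 35S::pBVR3, 1 passed with quantile normalization, 2 with the median shift, the offset, the stricter filter or the compared lines alone, 4 with the replicate block and 0 to 1 with single arrays left out. In CAB3::pBVR2 against No-0 WT, 3 passed with quantile normalization, without a filter or without moderation of variances, and 2 to 8 with single arrays left out. In 35S::pBVR3 against No-0 WT, 0 to 1 passed with single arrays left out. The replicate block changed no other count by more than 1.5 times, and under all settings run 0 of these genes passed as higher.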

Other observations

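Of the 10 protein-coding genes next to the 5 members in the RefSeq order of genes (TAIR10.1), 2 had a probe set named by the platform table, and neither was lower. *AT4G23885*, next to NdhS, rose 1.74-fold in CAB3::pBVR2 against 35S::pBVR3 (log2 difference 0.80 ± 0.20, SE, limma adjusted p = 0.0359) and 2.44-fold against No-0 WT (adjusted p = 0.00097). *AT1G70770*, next to CRR23, did not pass in any pair of lines, with log2 differences of 0.13 in CAB3::pBVR2 against 35S::pBVR3 (adjusted p = 0.656) and 0.39 in CAB3::pBVR2 against No-0 WT (adjusted p = 0.0573).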
